A study of Rattus norvegicus with 12 samples.

Results

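The genes described here are 40 members of the machinery that copies DNA in S phase and divides the cell in mitosis. They were taken by symbol from the 22850 features of the deposited read count table, and all 40 were found. In actively cycling cells, origins of replication are licensed by loading the MCM helicase, deoxynucleotides are supplied for copying, and cyclin-dependent kinases then drive the cell from S phase into mitosis. Most of these genes are transcribed mainly in cells that are cycling. S phase genes are driven mainly through E2F factors, and mitotic genes later through MuvB complexes with B-Myb and FOXM1. DREAM, a complex that also holds MuvB, represses these genes in resting cells. The mRNA level of these genes in a culture therefore serves as a measure of proliferation, which in cardiac fibroblasts accompanies activation and fibrosis.

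The cells were primary fibroblasts from the atria of Sprague-Dawley rats aged 1 to 3 days, separated by differential adhesion and not sorted. The AngII group received angiotensin II, a peptide hormone that activates fibroblasts, at 1 μmol/L. The AngII+HNG group received in addition 10 μmol/L HNG, an analogue of the mitochondrial peptide humanin. The AngII+MOTS-c group received 5 μmol/L MOTS-c, another peptide encoded in mitochondrial DNA. The peptides were added 1 h before AngII, and the treatment lasted 48 h in 2% FBS. Each group had 4 libraries, 12 in all. Every group carried AngII and no group without it was analysed here, so the question that could be asked is whether either peptide changed proliferation genes beside AngII. The study also assayed the proliferation of these cells with CCK-8, which counts metabolically active cells and was not analysed here. The libraries of a treatment are described as biological replicates, but the labels do not say what the replicate numbers 1 to 4 mark.

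Between 27960586 and 38322354 reads were counted per library, and the members took 0.150% to 0.177% of them. A member had 154 to 5168 counts in a library, so all 40 members entered every test. Fibroblast markers were the most abundant of the 5 cell types given here, by FPKM (fragments scaled to gene length and to the size of the library). The sum of 9 fibroblast markers lay between 12027 and 13583 FPKM. It was 3264 to 4441 FPKM for 8 cardiomyocyte markers, which included Nppa and Tnnt2, and 184 to 235 FPKM for 6 smooth muscle and pericyte markers. It was 62.3 to 103 FPKM for 10 macrophage markers and 15.6 to 22.8 FPKM for 7 endothelial markers. In RNA of whole cultures, fewer cycling cells and less RNA of these genes per cell cannot be told apart.

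The 3 libraries that carry replicate number 4 stood apart for the members. Replicate 4 was the lowest library of its group for 32 of 40 members with AngII, 18 of 40 with AngII+HNG and 30 of 40 with AngII+MOTS-c, against 27.9%, 24.4% and 27.2% of all tested genes. It was the highest library for 0 members in any group, against 27.8%, 25.9% and 27.0% of all tested genes. The comparisons of the treatments are therefore given with these libraries and, as a choice made after the data were seen, without them. The values by replicate number follow after the treatments.

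Levels between genes were compared as FPKM. Pcna, the sliding clamp that holds DNA polymerase on its template, had the highest level of the 40, 53.8 ± 2.76 FPKM (SD over 12 libraries). Next were Rrm1, the large subunit of ribonucleotide reductase, with 32.4 ± 1.27 FPKM, and Cdk1, the kinase of mitotic entry, with 31.6 ± 3.51 FPKM. The ranges of Rrm1 (29.8 to 34.7 FPKM) and Cdk1 (24.6 to 35.5 FPKM) over the libraries overlapped, whereas the range of Pcna (49.2 to 59.0 FPKM) lay above both. Mki67, which encodes the proliferation antigen Ki-67 that coats mitotic chromosomes, stood in the middle of the order with 11.2 ± 0.726 FPKM. Cdt1 and Cdc6, which load the MCM helicase at origins, had 4.57 ± 0.553 and 3.86 ± 0.441 FPKM. Gins2, a subunit of the GINS complex of the active helicase, had the lowest level, 1.55 ± 0.349 FPKM. For Gins2 the gene length implied by count and FPKM varied 1.69-fold between libraries, against at most 1.18-fold for any other member, so its FPKM do not follow its counts from library to library. The plot of FPKM by gene shows this order, and that the 3 treatments overlapped for nearly all members.

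**Figure D1:**
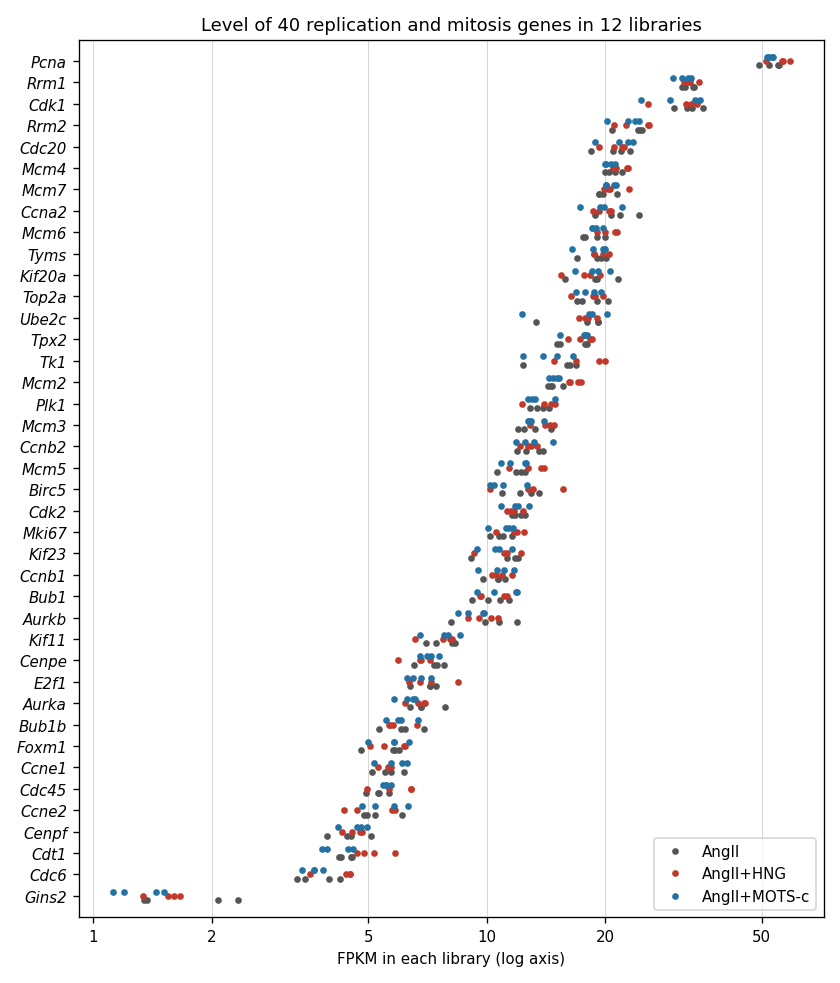
FPKM of the 40 members on a log axis, 1 point per library, coloured by treatment and ordered by the mean over 12 libraries. Pcna lies highest (53.8 FPKM), Gins2 lowest (1.55 FPKM), and the points of the 3 treatments are intermixed in most rows.

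The promoters of the members hold sequence features that their selection did not use. RefSeq promoters of the rat assembly GRCr8, which run from 250 bases before to 50 bases after the start of a gene, were available for 30 of the 40 members. They were searched on both strands for an E2F motif (TTTCGCGC, TTTGGCGC or TTTCCCGC), for the cell cycle genes homology region or CHR (TTTGAA or TTCGAA) that MuvB complexes bind, and for CCAAT, which NF-Y binds. The E2F motif was found in 8 of 30 member promoters (26.7%), against 1.72% of all 33469 promoters of the same length. CHR was found in 13 (43.3%, against 19.7% of all promoters) and CCAAT in 22 (73.3%, against 37.5%). By function, of 14 promoters of S phase members, 7 held E2F and 3 held CHR, whereas of 16 promoters of mitosis members 1, that of Cdk1, held E2F and 10 held CHR. CCAAT was found in 9 of the 14 and 13 of the 16, and the differences by function were not tested. CCAAT and CHR letters overlapped in 1 member promoter, as did CCAAT and E2F. These matches describe letters in a window, not binding in these cells.

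The promoters of Mcm2 and Cdt1 are shown because these 2 genes had the smallest p-values between AngII+HNG and each of the other groups. Mcm2 is a subunit of the replicative helicase (GRCr8 chr4:122918045-122918344, minus strand) and Cdt1 is its loading factor (GRCr8 chr19:67528999-67529298, plus strand). Sequences run 5′ to 3′ along the strand of the gene, and capitals mark motif matches.
Mcm2: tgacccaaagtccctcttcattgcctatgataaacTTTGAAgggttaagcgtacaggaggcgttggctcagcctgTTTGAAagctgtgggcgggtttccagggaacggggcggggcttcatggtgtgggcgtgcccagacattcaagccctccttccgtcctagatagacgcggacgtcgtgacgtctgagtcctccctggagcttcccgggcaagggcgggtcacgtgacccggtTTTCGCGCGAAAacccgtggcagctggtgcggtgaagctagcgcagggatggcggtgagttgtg
Cdt1: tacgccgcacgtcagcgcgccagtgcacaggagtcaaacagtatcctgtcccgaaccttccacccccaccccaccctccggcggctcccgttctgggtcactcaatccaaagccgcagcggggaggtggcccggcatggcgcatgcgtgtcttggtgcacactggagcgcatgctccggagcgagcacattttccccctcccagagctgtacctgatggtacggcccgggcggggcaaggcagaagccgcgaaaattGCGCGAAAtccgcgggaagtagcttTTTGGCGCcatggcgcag
In Mcm2 the E2F letters of both strands overlap in a single run next to the start of the gene, and 2 CHR matches lie further upstream. Cdt1 holds 2 E2F matches, both after the start, and no CHR or CCAAT.

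The promoters of Cdk1, Kif23 and Tk1 are shown because these members had the smallest p-values in the test of replicate number given further on. Cdk1 (GRCr8 chr20:19265043-19265342, plus strand) and Kif23, a kinesin of the central spindle in cytokinesis (GRCr8 chr8:71320535-71320834, minus strand), stand for the mitosis members. Tk1, thymidine kinase, which salvages thymidine for DNA synthesis (GRCr8 chr10:103544728-103545027, minus strand), stands for the supply of nucleotides.
Cdk1: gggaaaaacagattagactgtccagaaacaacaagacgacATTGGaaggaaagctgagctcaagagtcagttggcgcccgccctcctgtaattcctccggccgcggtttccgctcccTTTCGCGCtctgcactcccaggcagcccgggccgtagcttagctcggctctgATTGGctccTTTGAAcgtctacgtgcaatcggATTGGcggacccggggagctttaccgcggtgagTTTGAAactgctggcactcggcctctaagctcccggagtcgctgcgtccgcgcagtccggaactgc
Kif23: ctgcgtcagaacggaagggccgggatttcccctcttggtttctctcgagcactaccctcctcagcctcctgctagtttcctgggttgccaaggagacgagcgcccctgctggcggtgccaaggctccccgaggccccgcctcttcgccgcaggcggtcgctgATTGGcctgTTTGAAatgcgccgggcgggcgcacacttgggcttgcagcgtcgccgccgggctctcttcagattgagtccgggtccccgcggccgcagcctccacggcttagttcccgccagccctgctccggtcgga
Tk1: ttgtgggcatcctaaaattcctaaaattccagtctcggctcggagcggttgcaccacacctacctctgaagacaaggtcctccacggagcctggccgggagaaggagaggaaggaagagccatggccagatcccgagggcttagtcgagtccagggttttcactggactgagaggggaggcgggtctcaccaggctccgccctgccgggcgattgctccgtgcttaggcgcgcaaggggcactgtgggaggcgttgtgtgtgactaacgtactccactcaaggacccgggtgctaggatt
Cdk1 holds all 3 features, with CCAAT read on the opposite strand as ATTGG. In Kif23 a CCAAT match on the opposite strand lies just upstream of a CHR match, the order seen in many mitotic promoters. In Tk1 the letters searched are not in this window.

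With HNG beside AngII the members stayed within a narrow range. With the quasi-likelihood test of edgeR, adjusted by Benjamini-Hochberg over all 14524 tested genes, 0 of 40 members passed an adjusted p of 0.05, against 5.98% of all tested genes. At an unadjusted p below 0.05 there were 3 members, against 20.3% of all tested genes. DESeq2 called 1 member, Mcm2 (adjusted p = 0.0278), against 8.6% of all genes with an adjusted p, and limma on log2(FPKM + 1) called 0, against 4.41%. The median log2 fold change was 0.02 over the members and 0.004 over all tested genes, and 22 of 40 members were higher with HNG. The 95% confidence interval of every member lay within a 1.5-fold change in either direction, and that of 28 members within 1.2-fold. Without the libraries numbered 4, 0 members were called, against 3.73% of all genes in that fit. In it 4 members had an unadjusted p below 0.05, against 17% of all genes, and the median was 0.002.

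The 11 members that act at origins and in the helicase, with the clamp Pcna, lay on the same side. All 11 were higher with AngII+HNG than with AngII, with log2 fold changes from 0.05 to 0.21 and a median of 0.12, but 0 of 11 were called by edgeR and 2 had an unadjusted p below 0.05. Of all 14524 tested genes, 5.98% were called, 20.3% had an unadjusted p below 0.05 and 7445 were higher. Without the libraries numbered 4, all 11 were again higher with a median of 0.11, and without any single library the median lay between 0.09 and 0.15. On FPKM, limma gave 10 of 11 higher, with Gins2 lower. The 6 subunits of the MCM helicase, Pcna, Cdc6, Cdc45, Cdt1 and Gins2 make up this group. They were measured in the same libraries, so the 11 are not independent of each other, and the direction they share was not tested. A list of 40 other DNA replication and S phase genes, given further on, had 27 higher and 13 lower with HNG. Of further origin factors in it, Mcm10, Gins3 and Gins4 had a higher mean count at an equal library size with AngII+HNG. Mcm8 was nearly equal, and Orc1, Orc6, Gins1, Dbf4 and Cdc7 were lower.

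Levels of 1 gene in different libraries are given as CPM, which are counts at an equal library size, in order of replicate number. Mcm2 had 48.9, 53.2, 49.7 and 50.2 CPM in the AngII libraries and 55.1, 54.4, 58.0 and 57.5 CPM in the AngII+HNG libraries. Every AngII+HNG library lay above every AngII library. The log2 fold change was 0.16 ± 0.046 (SE, 95% confidence interval 0.06 to 0.26), with an adjusted p of 0.0604 by edgeR. Groups did not overlap for 2 members, Mcm2 and Cdt1, both higher with HNG, against 6.87% of all tested genes that were separated in this direction and 13.7% in either. Cdt1 had 10.05, 10.7, 10.7 and 9.98 CPM with AngII and 10.9, 13.6, 12.0 and 11.3 CPM with AngII+HNG. The lowest AngII+HNG library of Cdt1 was only slightly above the highest AngII library, and the log2 fold change of 0.21 ± 0.085 (SE) had an adjusted p of 0.175 by edgeR.

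Mcm6, another helicase subunit, had 53.8, 61.2, 58.4 and 54.9 CPM with AngII and 57.7, 64.9, 63.6 and 60.2 CPM with AngII+HNG. The groups overlapped, with a log2 fold change of 0.12 ± 0.055 (SE, edgeR adjusted p = 0.260). Gins2 had 4.81, 5.40, 6.45 and 5.21 CPM with AngII and 5.96, 6.53, 6.92 and 5.81 CPM with AngII+HNG. Its log2 fold change of 0.21 ± 0.11 (SE, edgeR adjusted p = 0.318) was positive on counts, whereas limma on log2(FPKM + 1) gave -0.16, and neither was called. Gins2 also overlaps Gse1 in RefSeq, and without knowledge of the use of strand the reads of the 2 genes cannot be told apart. Cdc6 had 10.1, 12.4, 11.6 and 9.66 CPM with AngII and 10.3, 13.0, 12.9 and 12.6 CPM with AngII+HNG, so its groups overlapped because of 1 low AngII+HNG library. Pcna had 63.8, 67.2, 67.6 and 60.5 CPM with AngII and 61.8, 71.2, 67.7 and 67.9 CPM with AngII+HNG, with a log2 fold change of 0.06 ± 0.053 (SE).

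Members that act in mitosis showed no common direction with HNG. Of the 8 genes of spindle, chromosomes and cytokinesis 3 were higher, of the 6 regulators of mitotic entry 3, and of the 6 genes of the spindle checkpoint and kinetochore 2, each group with a median log2 fold change of -0.02. Cenpe, the kinesin that carries chromosomes to the spindle equator, had the smallest p of these. It had 59.5, 58.6, 62.0 and 52.3 CPM with AngII and 56.6, 53.4, 46.6 and 53.2 CPM with AngII+HNG. The groups overlapped through AngII replicate 4, and the log2 fold change of -0.14 ± 0.065 (SE) had an adjusted p of 0.242 by edgeR.

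The common markers of proliferation overlapped between AngII and AngII+HNG. Mki67 had 118, 121, 127 and 113 CPM with AngII and 130.2, 136, 114 and 127 CPM with AngII+HNG (log2 fold change 0.09 ± 0.054, SE, edgeR adjusted p = 0.425). Top2a, the topoisomerase that untangles sister chromatids, had 91.2, 99.9, 106 and 89.5 CPM with AngII and 97.3, 102, 84.3 and 96.1 CPM with AngII+HNG. Both genes were lower in AngII+HNG replicate 3 than in any other library of that group. Ccnb1, cyclin B1, which activates Cdk1, had 36.7, 36.8, 38.4 and 33.9 CPM with AngII and 37.3, 39.6, 34.9 and 35.7 CPM with AngII+HNG. Cdk1 itself had 40.5, 44.6, 41.7 and 37.7 CPM with AngII and 39.9, 42.6, 40.7 and 31.7 CPM with AngII+HNG, where only replicate 4 was outside the range of the AngII libraries. The plots of single libraries show how small the separation of Mcm2 was beside its level. Of the other members plotted, Cdt1 was parted from AngII by a narrow gap and the rest overlapped.

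**Figure D2:**
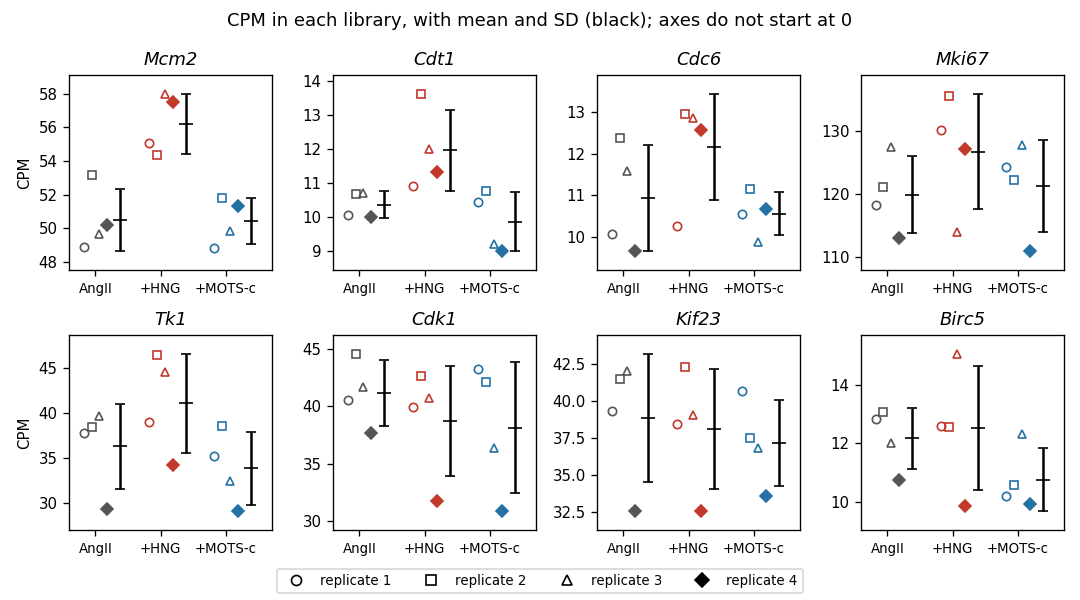
CPM of 8 members in each library by treatment, with a symbol for each replicate number (replicate 4 is filled) and the mean and SD of the 4 libraries in black. The axes do not start at 0. Mcm2 is separated between AngII (48.9 to 53.2 CPM) and AngII+HNG (54.4 to 58.0 CPM), and replicate 4 is the lowest point of each group for Tk1, Cdk1, Kif23 and Birc5.

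Some of the cell type markers were called between AngII and AngII+HNG. By edgeR, 3 of 7 endothelial markers were called higher, 3 of 10 macrophage markers higher and 1 lower, 2 of 9 fibroblast markers higher, 1 of 8 cardiomyocyte markers higher and 2 of 6 smooth muscle and pericyte markers lower, against 5.98% of all tested genes. The summed endothelial level was 15.6 to 17.7 FPKM with AngII and 20.5 to 22.8 FPKM with AngII+HNG. Their part in the values of the origin genes was not tested.

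With MOTS-c beside AngII the members were likewise not called. By edgeR 0 of 40 members passed an adjusted p of 0.05 and 0 had an unadjusted p below 0.05. Among all 14488 tested genes, 0.0069% (1 gene) passed the adjusted threshold and 5.05% had an unadjusted p below 0.05. DESeq2 and limma on log2(FPKM + 1) called 0 members as well, against 0.0221% and 0.0069% of all genes with an adjusted p. The median log2 fold change was -0.02 over the members and -0.001 over all tested genes, and 16 of 40 members were higher with MOTS-c. All 40 confidence intervals lay within 1.5-fold in either direction and 32 within 1.2-fold. Groups did not overlap for 0 members, against 3.41% of all tested genes. Without the libraries numbered 4, 0 members and 0 of all 14517 genes in that fit were called. In it 1 member had an unadjusted p below 0.05, against 5.45% of all genes, and the median was again -0.02.

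Birc5, which encodes survivin of the chromosomal passenger complex, had the smallest p between AngII+MOTS-c and AngII. It had 12.8, 13.1, 12.0 and 10.8 CPM with AngII and 10.2, 10.6, 12.3 and 9.93 CPM with AngII+MOTS-c. AngII+MOTS-c replicate 3 lay within the AngII range and the other 3 libraries lay below it, with a log2 fold change of -0.18 ± 0.087 (SE, edgeR adjusted p = 0.924). Aurkb, the kinase of the same complex, had 20.6, 18.9, 22.8 and 15.6 CPM with AngII and 18.5, 18.7, 16.0 and 17.2 CPM with AngII+MOTS-c. All 4 AngII+MOTS-c libraries of Aurkb lay within the AngII range (log2 fold change -0.14 ± 0.099, SE).

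Aurka, a kinase of centrosomes and the spindle, had 16.3, 14.2, 14.2 and 13.5 CPM with AngII and 13.5, 13.7, 13.6 and 12.2 CPM with AngII+MOTS-c. Its log2 fold change was -0.13 ± 0.073 (SE), and its reads are uncertain because it overlaps Fam210b in RefSeq. Ccna2, cyclin A2, which acts in S phase and before mitosis, had 37.3, 39.4, 44.0 and 34.5 CPM with AngII and 39.9, 35.6, 35.1 and 31.3 CPM with AngII+MOTS-c (log2 fold change -0.12 ± 0.078, SE). Its AngII+HNG libraries had 36.8, 37.1, 34.3 and 33.1 CPM, so both peptide groups overlapped with AngII. Both comparisons share the AngII libraries. The 4 members that supply nucleotides were all lower with MOTS-c, from -0.10 for Tk1 to -0.04 for Tyms, thymidylate synthase. By edgeR 0 of the 4 had an unadjusted p below 0.05, against 5.05% of all tested genes, and 7306 of all 14488 were lower. The direction shared by this group was not tested. Rrm1 of this group had 101, 106, 106 and 100.3 CPM with AngII and 102, 104, 98.9 and 94.4 CPM with AngII+MOTS-c (log2 fold change -0.05 ± 0.037, SE).

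The origin genes that were higher with HNG had no common direction with MOTS-c, where 5 of 11 were higher and the median was -0.004. Mcm2 had 48.8, 51.8, 49.8 and 51.3 CPM with AngII+MOTS-c, almost the same range as with AngII. Mki67 had 124, 122, 128 and 111 CPM, Top2a 102, 97.4, 92.7 and 88.3 CPM, Pcna 62.6, 64.2, 64.9 and 63.6 CPM and Ccnb1 40.1, 36.2, 37.9 and 32.8 CPM. Each of these groups overlapped with AngII. The plot of differences shows that the 95% intervals left out 0 for Mcm2, Cdt1 and Cenpe with HNG and for 0 members with MOTS-c.

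**Figure D3:**
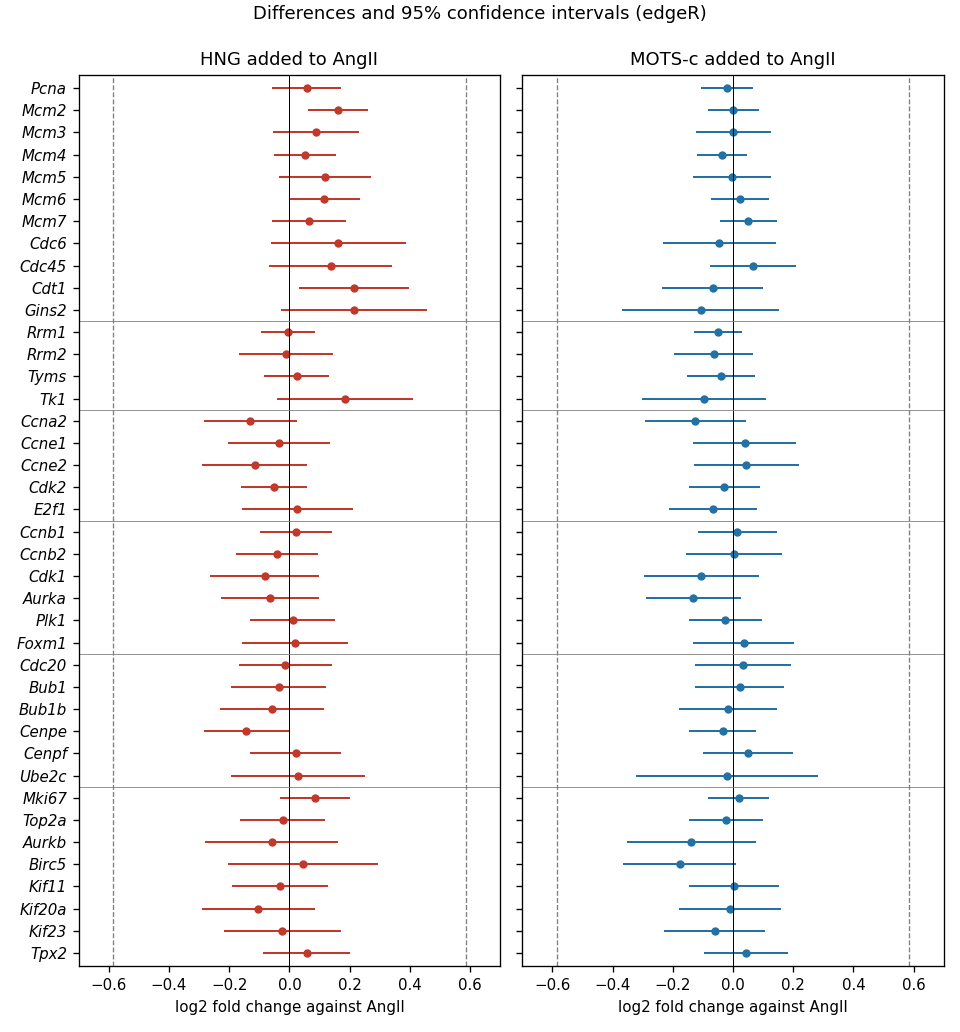
Log2 fold change of each member with its 95% confidence interval from edgeR, for HNG (left) and MOTS-c (right) against AngII, in groups by function. The solid line is no change and the dashed lines mark a 1.5-fold change. All 11 points of the origin and helicase genes at the top lie above 0 with HNG, against 5 of 11 with MOTS-c, and every interval stays inside the dashed lines.

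The peptides were also compared with each other at the doses used, which differed (10 μmol/L HNG and 5 μmol/L MOTS-c). By edgeR 0 of 40 members passed an adjusted p of 0.05, against 4.41% of all 14448 tested genes, and 5 had an unadjusted p below 0.05, all higher with HNG, against 19.3% of all tested genes. DESeq2 called 1 member, Mcm2 (adjusted p = 0.0261), against 7.66% of all genes with an adjusted p, and limma on log2(FPKM + 1) called 0, against 3.02%. The median log2 fold change of AngII+HNG against AngII+MOTS-c was 0.04, against 0.002 over all tested genes, and 30 of 40 intervals lay within 1.2-fold. Without the libraries numbered 4, 0 members were called, against 2.61% of all genes in that fit, and 5 had an unadjusted p below 0.05, against 17.1%. With a replicate block by the number in the title, 1 member was called, Tk1, against 7.3% of all genes in that fit. All 11 origin genes were again higher with HNG, with a median of 0.09, in a comparison that shares the AngII+HNG libraries with the one against AngII. Mcm7 changed its sign without AngII+HNG replicate 3 or AngII+MOTS-c replicate 1, which left 10 of 11 higher.

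Groups did not overlap for 3 members, Mcm2, Cdt1 and Gins2, all higher with HNG, against 6.37% of all tested genes in this direction and 12.6% in either. The log2 fold change of Mcm2 was 0.16 ± 0.044 (SE, edgeR adjusted p = 0.0655). Cdt1 had 10.4, 10.7, 9.21 and 9.01 CPM with AngII+MOTS-c (log2 fold change 0.28 ± 0.094, SE, edgeR adjusted p = 0.119), and its highest AngII+MOTS-c library lay close to the lowest with AngII+HNG. Gins2 had 5.65, 4.29, 5.39 and 4.93 CPM with AngII+MOTS-c (log2 fold change 0.32 ± 0.11, SE, edgeR adjusted p = 0.137). Over 20 alternative settings the log2 fold change of Gins2 ran from 0.13 to 0.40. Cdc6 had 10.5, 11.1, 9.88 and 10.7 CPM with AngII+MOTS-c (log2 fold change 0.21 ± 0.089, SE, edgeR adjusted p = 0.227). The fifth of these genes, Tk1, is given with the replicate numbers.

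Other genes of the pathway were counted in the same fits. By edgeR, 0 of 40 other DNA replication and S phase genes, 0 of 54 other mitosis and cytokinesis genes and 0 of 19 regulators of the E2F, Rb and DREAM families were called in any of the 3 comparisons. Of all tested genes, 5.98% were called between AngII+HNG and AngII, 0.0069% between AngII+MOTS-c and AngII, and 4.41% between the peptides. Between AngII+HNG and AngII, 1, 2 and 5 genes of these lists had an unadjusted p below 0.05, against 20.3% of all tested genes. DESeq2 called 0, 1 and 1, against 8.6%. With limma on log2(FPKM + 1) the counts were 0, 0 and 1, against 4.41%. The median log2 fold changes over the whole lists were 0.03, -0.008 and -0.008. The genes with a low p are named to account for the lists and none of them was called by edgeR. Lig1, the ligase that joins Okazaki fragments, was the S phase gene (log2 fold change 0.14 ± 0.062, SE). Anln, anillin of the cleavage furrow, and Cdc25c, the phosphatase that activates Cdk1, were the mitotic genes (-0.16 ± 0.051 and -0.21 ± 0.078, SE). Among the regulators, E2f4, an E2F that binds DREAM, had the smallest p (0.15 ± 0.042, SE, edgeR adjusted p = 0.0621), and E2f3, an activating E2F, was lower (-0.20 ± 0.069, SE). Rbl2, the pocket protein p130 of DREAM, had 0.12 ± 0.050, and 2 subunits of MuvB differed in sign, Lin52 with 0.19 ± 0.080 and Lin9 with -0.20 ± 0.088 (SE).

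Between AngII+MOTS-c and AngII, 0, 1 and 2 genes of these lists had an unadjusted p below 0.05, against 5.05% of all tested genes, and between the peptides 4, 2 and 2, against 19.3%. DESeq2 called 0 genes of these lists in both comparisons, against 0.0221% and 7.66% of all genes with an adjusted p, and limma on log2(FPKM + 1) called 0, against 0.0069% and 3.02%.

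Replicate number was tested in the same libraries. An F test of the replicate number beside treatment over all 12 libraries (edgeR, adjusted over 14686 genes) called 1 member, Tk1 (adjusted p = 0.0255), against 0.858% of all tested genes. At an unadjusted p below 0.05 there were 18 of 40 members, against 12.9% of all tested genes. The same held for 22 of 54 other mitosis genes, 8 of 40 other S phase genes and 3 of 19 regulators. Of these lists only Mybl2, the B-Myb factor of mitotic promoters, passed the adjusted threshold (adjusted p = 0.0357).

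Tk1 had 37.7, 38.4, 39.6 and 29.3 CPM with AngII. It had 39.0, 46.4, 44.5 and 34.2 CPM with AngII+HNG, and 35.2, 38.5, 32.4 and 29.0 CPM with AngII+MOTS-c. Replicate 4 was the lowest of the 4 libraries in each treatment, by 0.40, 0.34 and 0.28 on the log2 scale below the mean of the others. The call was lost when AngII replicate 4 (edgeR adjusted p = 0.212), AngII+HNG replicate 2 (0.0963) or 4 (0.163), or AngII+MOTS-c replicate 2 (0.0837) or 4 (0.142) was left out. With the number in the library name in place of that in the title, the adjusted p of Tk1 was 0.0618. Between treatments Tk1 was 0.19 ± 0.10 (SE) higher on the log2 scale with AngII+HNG than with AngII and 0.28 ± 0.10 (SE) higher than with AngII+MOTS-c, with edgeR adjusted p-values of 0.355 and 0.140. With a replicate block the difference from AngII was called by the number in the library name (edgeR adjusted p = 0.0446) and that from AngII+MOTS-c by the number in the title (0.0132). These blocks called 7.66% and 7.3% of all genes in their fits. The library names give replicates 2 and 3 the same number, and with these replicates summed 0 members were called in either comparison, against 3.95% and 2.96% of all genes. Replicate 1 of AngII+MOTS-c has a number in its library name, 2, that the other libraries lack. Between the peptides, and between AngII+MOTS-c and AngII, replicate 1 of both groups therefore had no partner in the block by library name. In the test of the replicate number by library name AngII+MOTS-c replicate 1 had none.

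Cdk1, Kif23, Kif20a and Cdc20 followed with adjusted p-values of 0.0555, 0.0732, 0.0732 and 0.0819 in the same test. DESeq2's likelihood ratio test called these 4 and Tk1, 5 members in all, against 3.63% of the genes to which it gave an adjusted p. Cdk1 had 43.2, 42.2, 36.4 and 30.8 CPM with AngII+MOTS-c, and its replicate 4 lay 0.39 below the mean of the others on the log2 scale, against 0.16 with AngII and 0.37 with AngII+HNG. Kif23 had 39.4, 41.5, 42.1 and 32.5 CPM with AngII, 38.4, 42.3, 39.0 and 32.6 CPM with AngII+HNG and 40.7, 37.5, 36.8 and 33.6 CPM with AngII+MOTS-c. Replicate 4 was the lowest in each group, and the lowest of replicates 1 to 3 over all treatments was 36.8 CPM. Kif20a, a kinesin of the cleavage furrow that overlaps Cdc23 in RefSeq, had 48.9, 46.8 and 51.5 CPM in the 3 libraries numbered 4, against 53.6 to 66.2 CPM in the other 9. Cdc20, which activates the anaphase-promoting complex, had 34.5, 35.4 and 35.3 CPM in them, against 38.6 to 43.7 CPM in the other 9.

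**Figure D4:**
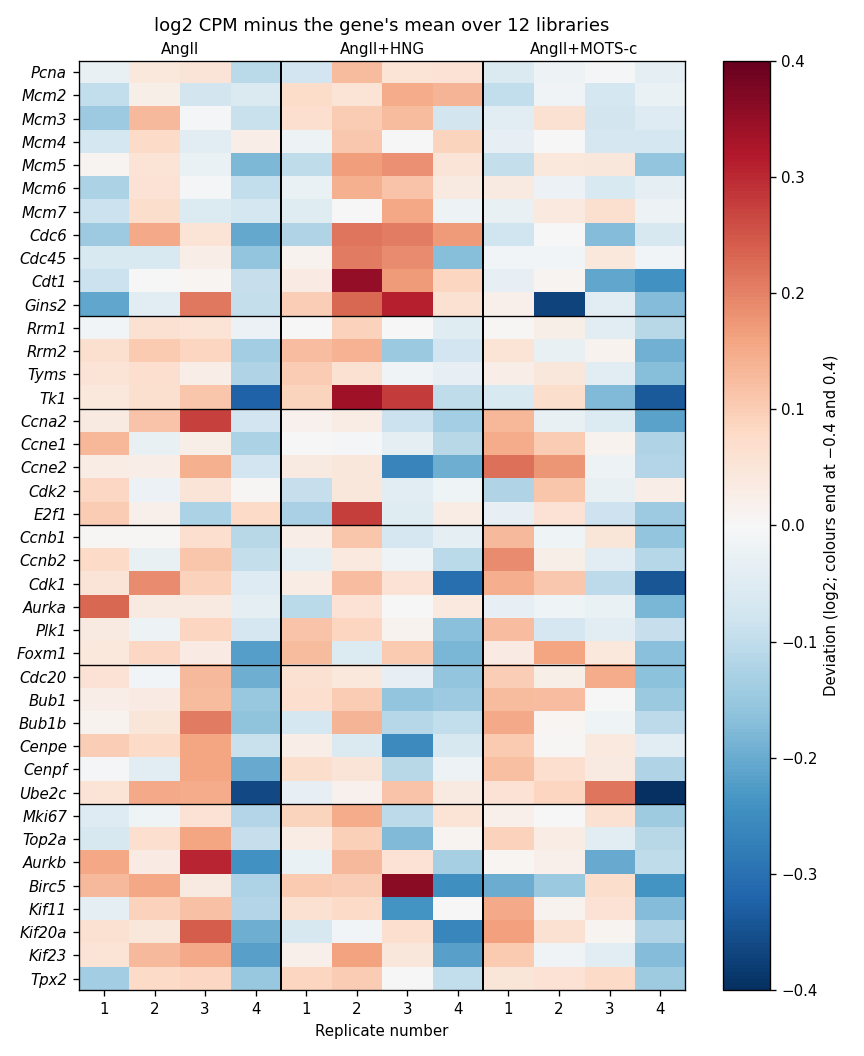
Log2 CPM of each member in each library minus the gene's mean over all 12 libraries, with genes in groups by function and libraries by treatment and replicate number. Blue is below and red above the mean. The column of replicate 4 is mostly blue in each treatment, and the origin and helicase genes at the top are mostly red in AngII+HNG replicates 2 and 3.

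Replicate 4 was the lowest library in all 3 treatments for 14 of 40 members (35%), against 4.62% of all tested genes, in 2 treatments for 16, in 1 for 6 and in 0 for 4 members. The 4 were Mcm2, Mcm6, Mcm7 and Cdk2. For replicates 1, 2 and 3 the members lowest in all 3 treatments numbered 1, 0 and 0, against 1.57%, 1.84% and 3.08% of all tested genes. The median difference of replicate 4 from the mean of the others was -0.16 with AngII, -0.09 with AngII+HNG and -0.16 with AngII+MOTS-c on the log2 scale, and 0.003, 0.008 and 0.002 over all tested genes.

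The low values were uneven among functions, a difference that was not tested. Replicate 4 was lowest in all 3 treatments for 4 of 8 genes of spindle, chromosomes and cytokinesis, 4 of 6 regulators of mitotic entry and 3 of 4 genes of nucleotide supply. It was so for 2 of 5 S phase cyclins, CDKs and E2f1, for 1 of 6 genes of the spindle checkpoint and kinetochore and for 0 of 11 origin and helicase genes. For the origin and helicase genes replicate 1 was the lowest library in 6 of 11 with AngII, 7 of 11 with AngII+HNG and 4 of 11 with AngII+MOTS-c, and replicate 4 in 5, 3 and 3. Of all 14686 tested genes, 3372, 3630 and 3539 were lowest in replicate 1. The median difference, as a mean of the 3 treatments, was -0.19 for spindle, chromosomes and cytokinesis, -0.18 for the checkpoint, -0.16 for nucleotide supply, -0.16 for the S phase cyclins, -0.14 for mitotic entry and -0.05 for the origin genes. The other mitosis genes had -0.16 and the other S phase genes -0.08, with 22 of 54 and 3 of 40 lowest in all 3 treatments. Ube2c, which encodes a ubiquitin-conjugating enzyme of mitotic exit, differed most, by -0.48 with AngII and -0.61 with AngII+MOTS-c but 0.002 with AngII+HNG.

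**Figure D5:**
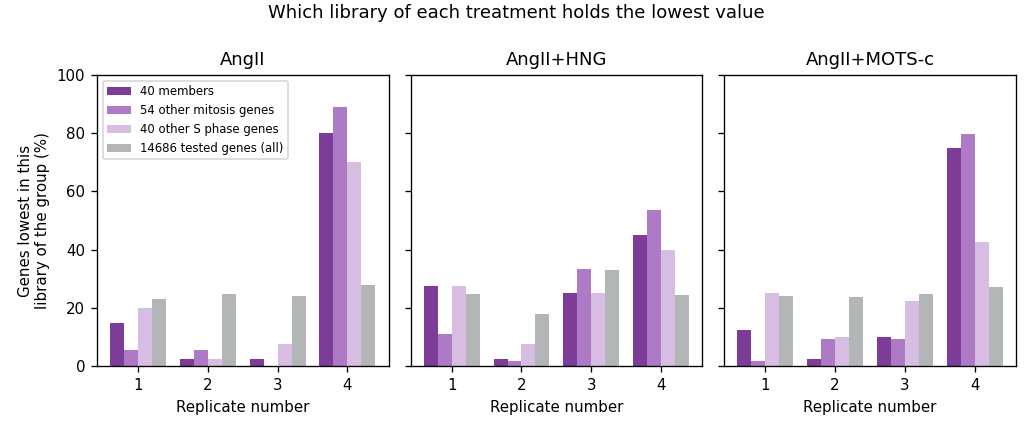
Percent of genes whose lowest value in a treatment lies in the library of each replicate number, for the 40 members, 54 other mitosis genes, 40 other S phase genes and all 14686 tested genes. The bars of replicate 4 reach 80%, 45% and 75% for the members in the 3 treatments, against 27.9%, 24.4% and 27.2% for all genes.

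Several lists of cell type markers were higher in replicate 4 than in the other libraries by their median. The median difference of replicate 4 from the other libraries, as a mean of the 3 treatments, was 0.15 for fibroblast markers, 0.20 for cardiomyocyte markers, 0.14 for macrophage markers and 0.16 for smooth muscle and pericyte markers, and -0.001 for endothelial markers. Replicate 3 was the lowest library for 8 of 8 cardiomyocyte markers with AngII, 4 with AngII+HNG and 7 with AngII+MOTS-c. Of all tested genes, 24.2%, 33.1% and 24.9% were lowest in replicate 3. The test of the replicate number does not say which number differs. In it, 4 of 9 fibroblast, 3 of 10 macrophage and 2 of 8 cardiomyocyte markers were called, against 0.858% of all tested genes. Of the smooth muscle and pericyte markers 0 of 6 were called, and of the endothelial markers 0 of 7. At an unadjusted p below 0.05 there were 5 and 1 of the latter lists. The part of these in the values of the members was not tested, and what replicate number 4 marks cannot be told from the labels. Among the replicates 1 to 3 alone, 0 members were called by edgeR in the test of the number, against 0.00681% (1 gene) of all 14683 tested genes. In it 0 members had an unadjusted p below 0.05, against 6.29% of all tested genes.

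The spread between libraries of a treatment sets how small a difference could be seen. The SD within treatments of log2 CPM had a median of 0.11 over the members, from 0.05 for Mcm2 to 0.23 for Ube2c, against 0.09 over 9225 genes in the same range of expression. Without replicate 4 the medians were 0.085 and 0.086. Counting error alone was 0.10 on the log2 scale for a library at the mean count of Gins2, whose SD was 0.16, and 0.02 at that of Mki67. The 95% confidence intervals of the differences from AngII ran from -0.29 to 0.46 with HNG and from -0.37 to 0.28 with MOTS-c on the log2 scale over the 40 members.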

How the data were processed

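Libraries of mRNA from primary rat atrial fibroblasts, 4 for each of 3 treatments, were sequenced as paired-end reads on a DNBSEQ platform. The authors deposited raw read counts for each gene, and FPKM of the same genes. The formula of the deposited FPKM is not given in the sources used here, and the length that count and FPKM imply differed between libraries by up to 1.69-fold (Gins2) among the members. The submitters' processing notes name HISAT2, Picard 1.41 and SAMtools 0.1.18. The counting tool, its use of strand, the genome build and the annotation are not given in the sources used here, and 8 of 40 members overlap in RefSeq a gene that is also in the count table. Treatments and replicate numbers were taken from the sample titles.

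Differential expression was tested on the counts with edgeR 4.0.16 under R 4.3.3 (filterByExpr, TMM, glmQLFit and glmQLFTest), each comparison on its own 8 libraries, with Benjamini-Hochberg adjustment over all tested genes and a threshold of 0.05 with no limit on the fold change. CPM were scaled by TMM, and log2 CPM used a prior count of 2. Standard errors and 95% intervals were derived from the F statistic. Replicate numbers were tested by an F test beside treatment over 12 libraries. Alternatives were DESeq2 1.42.0, limma 3.58.1 on log2(FPKM + 1) or log2(FPKM + 0.1), RLE factors, other filters, robust estimation, 1 fit of all libraries, replicate blocks, the sum of replicates 2 and 3, whose library names share a number, and the omission of each library. The scripts were tested on simulated counts.

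The members and lists were chosen with earlier results of these data known. Genes named with their values are the called members, the 5 with the smallest p per comparison, Mki67, Top2a, Pcna, Mcm2, Ccnb1 and Cdk1, the 3 highest and 3 lowest by FPKM, and up to 5 of each other list. Kif23, Kif20a, Cdc20, Ube2c, Tyms and the genes of the other lists with an unadjusted p below 0.05 were named after their values were seen. Of 55 other mitosis genes 54 were tested. Depth was 27960586 to 38322354 counts per library, at which the lowest count of a member was 154.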

Additional observations from a re-analysis of the deposited data

Results flagged for a closer look

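In 5 of 120 sets of 4 libraries (40 members in 3 treatments), 1 library lay far from the other 3 by Dixon's criterion. Chance gives about 1 in 20 such sets. Cdc6, which loads the helicase, was lowest in AngII+HNG replicate 1 with 10.3 CPM, where the nearest library had 12.6 CPM. Bub1b, the checkpoint protein BubR1, was highest in AngII+HNG replicate 2 with 30.4 CPM, where the nearest had 26.3 CPM. Cdc45, a subunit of the active helicase, was highest in AngII+MOTS-c replicate 3 with 11.2 CPM, where the nearest had 10.9 CPM. Aurka and Tpx2, which activates Aurka on the spindle, were both lowest in AngII+MOTS-c replicate 4, with 12.2 CPM (nearest 13.5 CPM) and 46.6 CPM (nearest 53.2 CPM).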

How the results depend on the processing

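The medians of the members moved by less than the spread between libraries under all alternatives, from -0.03 to 0.03 on the log2 scale with HNG, from -0.05 to 0.007 with MOTS-c and from 0.002 to 0.06 between the peptides. The medians against AngII crossed 0, and so did the uncalled difference of Gins2 with HNG (-0.16 to 0.30). With MOTS-c, 0 members were called under all 20 alternatives. Between AngII+HNG and AngII the 0 members called became 1 with DESeq2 (Mcm2) and with all 12 libraries in 1 fit (Mcm2, adjusted p = 0.0300). Between the peptides it likewise became 1 with DESeq2 and in the fit of all libraries (Mcm2, adjusted p = 0.0323). DESeq2 called 8.6% and 7.66% of all genes with an adjusted p in these 2 comparisons. For the fit of all libraries the share of all genes called is not given here. Of the other mitosis genes 1 instead of 0 was called with DESeq2 and, over the omission of single libraries, 0 to 1 (1, Anln, without AngII replicate 4). Of the regulators 1 (E2f4) was called with DESeq2 and with limma at both pseudocounts, 1 and 0.1. In the test of the replicate number the 1 member called became 0 with the number in the library name and 3 without a filter on low counts. It became 5 with DESeq2, against 3.63% of the genes with an adjusted p, and 0 to 4 over the omission of single libraries. It was 0 without AngII replicate 4, AngII+HNG replicate 2 or AngII+MOTS-c replicate 2 or 4, 2 without AngII replicate 1 or AngII+MOTS-c replicate 1 or 3, and 4 without AngII+HNG replicate 3. Among numbers 1 to 3 alone, a choice made after the data were seen, it was 0, against 0.00681% of all tested genes. For the other fits of the replicate number the share of all genes called is not given here. Their counts therefore cannot be set against all genes. The cause of the changes in the counts was not tested.

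Same-numbered libraries had correlations of their deviations of -0.03 to 0.12 between AngII+HNG and AngII, 0.02 to 0.13 between AngII+MOTS-c and AngII, and -0.01 to 0.25 between the peptides. They were above 0.1 in 1, 1 and 3 of 4 pairs, and because not every pair was, the numbers were not treated as pairs. In each comparison the pair numbered 4 had the highest correlation (0.12, 0.13 and 0.25). With a replicate block by the library name's number, 1 member was called between AngII+HNG and AngII (Tk1, adjusted p = 0.0446), and blocking by the title's number called 0. Between the peptides the block by the title called 1 (Tk1, adjusted p = 0.0132) and the block by the library name 0, in a fit where replicate 1 of both groups had no partner. Either block called 1 other mitosis gene between AngII+HNG and AngII. With MOTS-c against AngII the blocks by title and by library name called 0 members, against 0.0138% and 0.0069% of all genes. In the block by library name replicate 1 of both groups again had no partner. Depth limits the members with the lowest counts, Gins2 and Cdt1, whose counting errors of 0.10 and 0.08 on the log2 scale per library compare with SDs of 0.16 and 0.11.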
